A study of Mus musculus with 81 samples.

Results

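The visceral mesenchyme is the connective tissue that surrounds the gut and the organs that bud from it, and in the embryonic pancreas it supplies signals for growth of the epithelium. Its cells are laid out by transcription factors, proteins that bind DNA and set which genes are read. Of the 22869 gene symbols in the deposited table, 9 that encode such factors are described here across 81 cells: Wt1, Tcf21, Nkx3-2, Tbx3, Tbx2, Isl1, Prrx1, Hand2 and Osr1. They were chosen by name. Where a gene had several transcripts, the one with the highest mean over cells was used, and all 9 were found in the table.

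At embryonic day 13.5, the pancreas of wild-type mice of the CD1 strain was broken up with trypsin, with no sorting named. Each cell was captured on a microfluidic chip and gave 1 library. The labels put all cells in 1 group and name no embryo, so the 81 cells are 1 sample, no test was made, and every SD is a spread over cells. Values are RPKM, reads scaled to transcript length and to the depth of the library, so levels of different genes are set beside each other per length. A gene was called detected at 1 RPKM. The interval after a share is a 95% Clopper-Pearson interval, which covers counting error alone.

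Depth was estimated from the steps in the low RPKM values, which gave a median of 3544520 reads per cell. In 77 cells the estimate lay between 1669720 and 5380280 reads, and 4 cells were shallow, C3 at 19954 reads, C61 at 73188, C94 at 198944 and C43 at 421337. A median of 4057 genes per cell reached 1 RPKM. All 81 libraries had index pairs of their own, built from 12 first and 8 second indices. A total of 62 cells had at least 3 of 10 stromal markers (collagens, Pdgfra, Pdgfrb, Fbn1, Dcn and Lum) at 10 RPKM and fewer than 3 of any other list. These are called collagen cells below. Another 14 cells had at least 3 epithelial, endocrine, leukocyte or endothelial markers at that level, and 8 of the 14 also had 3 or more stromal markers. They are called other marked cells. Neither class holds the remaining cells. C29 and C37 had at least 3 mesothelial markers, C45 had at least 3 neural crest and neuron markers, and C13 and C20 had fewer than 3 of every list. The series is titled for pancreatic progenitors, and 7 of the 14 had at least 3 epithelial markers, 2 of these (C24 and C56) with at least 3 endocrine markers too. None of the 9 genes is among the markers.

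The genes fall into families by the part of the protein that binds DNA. Tcf21 and Hand2 encode basic helix-loop-helix factors, Tbx2 and Tbx3 T-box repressors, Isl1, Prrx1 and Nkx3-2 homeodomain factors, and Wt1 and Osr1 zinc finger factors. RefSeq promoter sequences (GRCm38.p6) were at hand for 5 of the 9 genes: Tcf21, Nkx3-2, Isl1, Prrx1 and Hand2. The 250 bases before the start of 3 of them are shown, because Hand2, Prrx1 and Isl1 come up in the co-detection results below. Hand2 was detected more often in cells with Prrx1 than without it, by 22.2 percentage points (-2.06 to 42.3). Isl1 was rarely detected with Tlx1. The windows are chr8:57320733-57320982 on the plus strand for Hand2, chr1:163313651-163313900 on the minus strand for Prrx1 and chr13:116309689-116309938 on the minus strand for Isl1, each written 5′ to 3′. Capitals mark the E-box CANNTG, the letters that basic helix-loop-helix factors are known to bind, and the homeodomain core TAAT, on either strand.
Hand2: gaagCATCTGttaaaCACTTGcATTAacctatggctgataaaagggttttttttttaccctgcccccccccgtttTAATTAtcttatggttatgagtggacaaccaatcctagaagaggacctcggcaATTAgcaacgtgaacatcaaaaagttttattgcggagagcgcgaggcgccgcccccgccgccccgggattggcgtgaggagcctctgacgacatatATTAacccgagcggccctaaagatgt
Prrx1: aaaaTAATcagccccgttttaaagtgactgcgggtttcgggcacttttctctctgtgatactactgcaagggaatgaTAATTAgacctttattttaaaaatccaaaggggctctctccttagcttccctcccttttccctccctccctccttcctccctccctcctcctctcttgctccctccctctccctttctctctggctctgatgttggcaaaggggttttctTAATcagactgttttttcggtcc
Isl1: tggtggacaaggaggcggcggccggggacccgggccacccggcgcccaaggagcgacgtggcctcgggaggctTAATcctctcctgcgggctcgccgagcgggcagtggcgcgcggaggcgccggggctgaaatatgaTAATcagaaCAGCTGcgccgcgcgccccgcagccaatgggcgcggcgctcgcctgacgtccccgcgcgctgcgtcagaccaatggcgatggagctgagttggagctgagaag

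The Hand2 window holds 2 E-boxes and 5 homeodomain cores, the Prrx1 window 4 homeodomain cores and no E-box, and the Isl1 window 1 E-box and 2 homeodomain cores. Matches of different motifs did not overlap in these windows. An E-box is held by 66.2% of all 32536 RefSeq windows of the same length, and a homeodomain core by 54.8%. The T-box core GGTGTGA, searched on both strands and held by 3.33% of all windows, had no match in the 5 windows at hand. A match is a run of letters and says nothing on binding.

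The first question was how many cells carried each gene, and at what level. Tcf21 and Wt1 were detected in the most cells and had the highest means over all cells (32.97 ± 58.2 RPKM for Tcf21 and 29.9 ± 36.2 RPKM for Wt1, SD over 81 cells). Hand2 was detected in 49 of 81 cells, with a mean of 6.32 ± 9.52 RPKM, and the other 6 genes in at most 32 cells. Over all 13237 genes above 0 in at least 3 cells, the median gene reached 1 RPKM in 18 cells, and over the 9 genes the median was 28.

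Tcf21, a regulator of spleen, lung and kidney mesenchyme in the mouse (chr10:22537079-22539934, mm9, minus strand), was detected in 59 of 81 cells (72.8%, 61.8% to 82.1%). In these cells its level ran from 1.58 RPKM through a median of 17.2 to 337.3 RPKM in C40. Values were spread over the whole range, and 38 cells reached 10 RPKM.

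Wt1, known from mesothelium and from kidney and gonad development (chr2:104966686-105013771, plus strand), was detected in 54 cells (66.7%, 55.3% to 76.8%). The lowest detected value was 3.57 RPKM, the median 35.5 and the highest 166.4 RPKM, in C79. Another 12 cells held Wt1 above 0 and below 1 RPKM, and 15 were at 0. No cell lay between 1 and 3.57 RPKM, so the count of Wt1 cells is the same at any threshold in that gap. With any value above 0 as detected it was 66 cells (81.5%). The 2 intervals for Tcf21 and Wt1 overlap, but both shares come from the same 81 cells, so this overlap does not judge their order. Tcf21 without Wt1 was found in 20 cells, and Wt1 without Tcf21 in 15. At 10 RPKM the order turned, with 49 cells for Wt1 and 38 for Tcf21.

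Hand2, needed for limb and heart formation in the mouse (chr8:59799780-59803314, plus strand), was detected in 49 cells (60.5%, 49.01% to 71.2%). Its detected values had a median of 6.66 RPKM and a highest value of 44.0 RPKM in C7. That median is below those of Tcf21 and Wt1, although the share of cells overlaps with theirs. At 10 RPKM Hand2 was found in 18 cells, against 38 for Tcf21 and 49 for Wt1.

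Tbx3 (chr5:120120678-120134610, plus strand) was detected in 32 cells (39.5%, 28.8% to 50.99%), Prrx1, a factor of limb and facial mesenchyme (chr1:165175250-165243781, minus strand), in 28 (34.6%, 24.3% to 45.96%) and Isl1 (chr13:117088478-117099896, minus strand) in 26 (32.1%, 22.2% to 43.4%). The intervals of these 3 shares overlap. Detected medians were 8.13 RPKM for Tbx3, 12.6 RPKM for Prrx1 and 13.4 RPKM for Isl1. The highest values were 39.3 RPKM for Tbx3 in C82, 95.8 RPKM for Prrx1 in C81 and 133.4 RPKM for Isl1 in C56. Isl1, which serves both islet endocrine cells and the mesenchyme of the dorsal pancreas in the mouse, thus had its highest value in a cell with endocrine markers.

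Osr1, an early factor of kidney and gut-tube mesoderm (chr12:9581248-9588306, plus strand), was detected in 17 cells (20.99%, 12.7% to 31.5%), Nkx3-2, a gene of splanchnic mesenchyme and spleen (chr5:42152722-42155459, minus strand), in 15 (18.5%, 10.8% to 28.7%) and Tbx2 (chr11:85646117-85655450, plus strand) in 14 (17.3%, 9.78% to 27.3%). These 3 intervals overlap as well. The 3 highest cells made up 71.3% of the summed RPKM of Osr1 and 66.4% of that of Tbx2. They made up 48.8% for Nkx3-2, where 2 of the 3 were shallow cells, and 17.9% for Wt1. For Osr1 the 2 highest cells were C69 at 130.2 RPKM and C93 at 101.3 RPKM, and the next, C25, was at 29.97 RPKM. Tbx2 reached 79.9 RPKM in C19 and at most 24.8 RPKM elsewhere. Detected medians were 17.9 RPKM for Nkx3-2, 6.21 RPKM for Tbx2 and 3.20 RPKM for Osr1, so the order by detected median is not the order by number of cells.

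The shares of cells moved with the threshold. Tbx3 was above 0 in 62.96% of cells and at 10 RPKM in 13.6%, and Osr1 was above 0 in 37.04% and at 10 RPKM in 8.64%. With transcripts of a gene summed, 40.7% of cells held Prrx1 and 43.2% held Tbx3 at 1 RPKM. Nkx3-2 was detected in 11 of 41 cells numbered 49 to 96 (26.8%, 14.2% to 42.9%) and in 4 of 40 cells numbered 1 to 48 (10%, 2.79% to 23.7%), with intervals that overlap.

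The 2 highest Nkx3-2 values, 70.2 RPKM in C3 and 66.97 RPKM in C61, came from shallow cells and rest on an estimated 2.41 and 8.42 reads. In the 77 deeper cells each detection of the 9 genes rests on at least an estimated 4.16 reads (Tcf21), and the median detection on 32.3 reads (Osr1) to 470.7 reads (Wt1). A value of 0 in C3 limits little, since 1 read is worth 10.1 RPKM of Prrx1 and 39.6 RPKM of Tcf21 there.

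**Figure D1:**
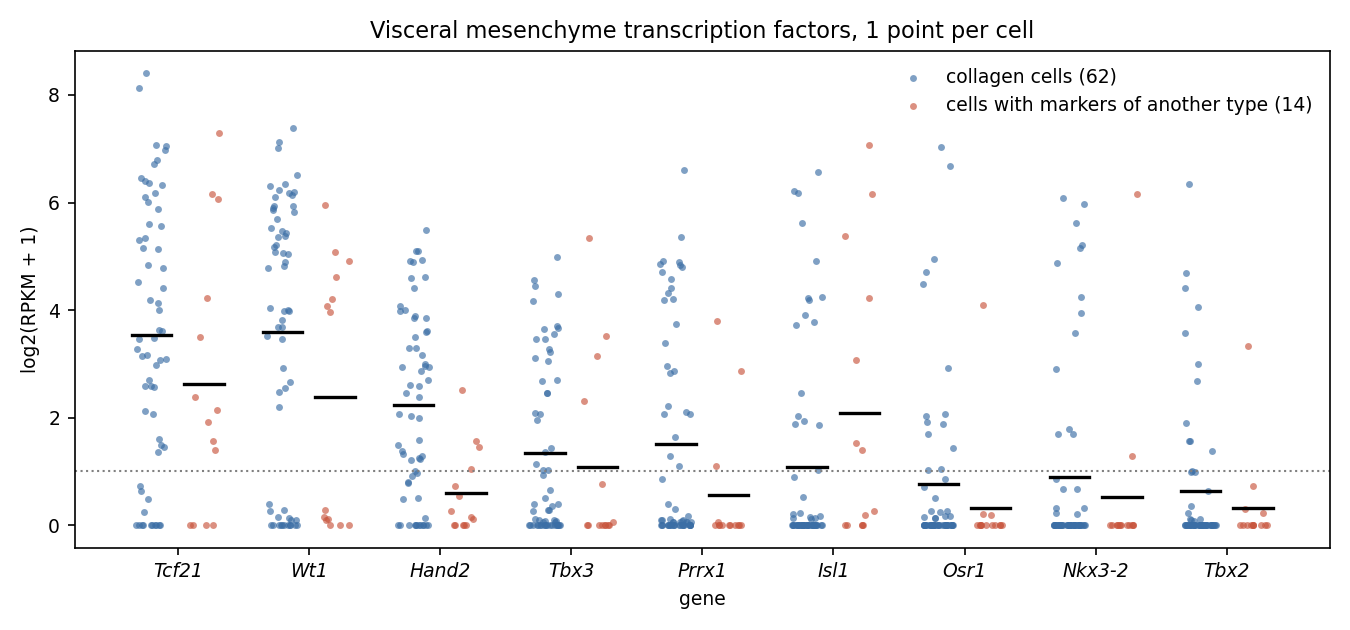
Level of each gene as log2(RPKM + 1), 1 point per cell, ordered by the number of cells detected, with collagen cells (62) left and other marked cells (14) right of each gene name. Black bars are means and the dotted line is 1 RPKM. Wt1 shows a gap just above the line, and Isl1 has a higher mean in the other marked cells.

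Genes were then counted per cell. The median cell held 4 of the 9 genes (mean 3.63 ± 1.56, SD, n = 81 cells), and the range was 0 to 7. Most cells carried Wt1 or Tcf21: 74 of 81 had at least 1 of them, and 7 had neither. The 81 cells showed 62 different combinations of the 9 genes, and 52 of these were seen in 1 cell each. The most common combination, Tcf21 with Isl1 alone, was found in 5 cells, of which 4 were other marked cells (C2, C24, C56 and C95, described further on) and 1 a collagen cell (C96). The number of the 9 genes in a cell had a Pearson r of 0.21 with the number of all genes at 1 RPKM (81 cells, both values from the same library).

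Cells at the ends of the range were C30 and C69 with 7 genes, and C49 with 0. C30 held Tcf21 at 67.3, Wt1 at 40.3, Prrx1 at 27.8, Osr1 at 21.3, Tbx2 at 15.6, Isl1 at 12.7 and Hand2 at 1.33 RPKM. C69 held Osr1 at 130.2, Tcf21 at 79.2, Nkx3-2 at 47.9, Tbx3 at 30.6, Hand2 at 13.4, Prrx1 at 3.18 and Tbx2 at 1.98 RPKM, with Wt1 at 0.217 RPKM. Both are collagen cells, and they differ in Wt1, Isl1, Nkx3-2 and Tbx3. C49, also a collagen cell, had an estimated 2544100 reads, and is not among the shallow cells.

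**Figure D2:**
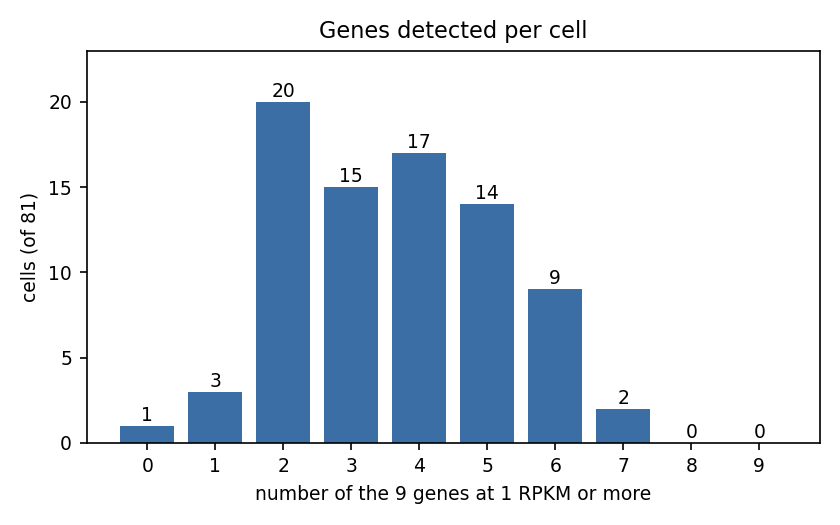
Number of cells (vertical axis, of 81) by how many of the 9 genes reached 1 RPKM (horizontal axis). The largest bar is at 2 genes with 20 cells, and 42 cells held 4 or more.

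The second question was whether the genes mark the stromal cells. Hand2 and Wt1 were higher in collagen cells than in other marked cells, Isl1 was higher in the other marked cells, and Tcf21 was common in both. Collagen cells held a median of 4 of the 9 genes (range 0 to 7) and other marked cells a median of 2 (range 1 to 6), although the other marked cells had more genes at 1 RPKM in all (median 4732.5, against 4019 in collagen cells).

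Hand2 was detected in 43 of 62 collagen cells (69.4%, 56.3% to 80.4%) and in 4 of 14 other marked cells (28.6%, 8.39% to 58.1%). Its highest value was 44.0 RPKM in collagen cells and 4.70 RPKM in other marked cells. The mean log2(RPKM + 1) of Hand2 was 2.23 ± 1.72 in collagen cells and 0.60 ± 0.78 in other marked cells, a difference of 1.63. For Wt1 the means were 3.59 ± 2.52 in collagen cells and 2.39 ± 2.43 in other marked cells. The difference of 1.19 is smaller than either spread, and was 0.80 without the 2 cells with endocrine markers. The mesothelial-marker cells C29 and C37, which are in neither class, held Wt1 at 58.4 and 127.0 RPKM.

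Hand2 and Wt1 were the 2 of 9 genes at least 1 log2 unit higher in collagen cells, where 2.66% of all 13237 genes tested passed that mark. The median difference was 0.45 over the 9 genes and -0.10 over all genes. Prrx1 and Tcf21 differed by 0.95 and 0.92, and Osr1, Nkx3-2, Tbx2 and Tbx3 by 0.27 to 0.45. With pseudocount 0.1 in place of 1 the count was 4 of 9, with Prrx1 and Tcf21 added. With transcripts of a gene summed it was 3 of 9, and Prrx1 differed by 1.54, more than Wt1.

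Isl1 was detected in 17 of 62 collagen cells (27.4%) and in 7 of 14 other marked cells (50%). Its mean log2(RPKM + 1) was 1.09 ± 1.91 in collagen cells and 2.09 ± 2.59 in other marked cells, a difference of -1.01, and 9.71% of all genes were at least 1 lower in collagen cells. The endocrine-marker cells C24 and C56 held Isl1 at 70.1 and 133.4 RPKM. Without them the difference was -0.25. Among collagen cells the highest Isl1 value was 94.3 RPKM, in C41.

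Tcf21 was detected in 48 of 62 collagen cells (77.4%, 65.03% to 87.1%) and in 10 of 14 other marked cells (71.4%, 41.9% to 91.6%). Those other marked cells included C56 with 156.2 RPKM, the leukocyte-marker cell C2 with 70.7 RPKM and the epithelial-marker cell C43 with 65.8 RPKM. Wt1 likewise reached 61.3 RPKM in C36, a leukocyte-marker cell, where Tcf21 was at 0. The other marked cells held a median of 3.5 of 10 stromal markers at 10 RPKM (range 2 to 5), with a summed stromal level of 46.7 to 507.6 RPKM, against a median of 5 (range 3 to 8) and 143.4 to 1193 RPKM in collagen cells. The part of stromal transcripts from another cell or from free RNA in these values was not tested.

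Reads can pass between libraries that share an index. Gcg, the glucagon gene, was at 48647 RPKM in C24, and in the 16 other cells compared that share an index with C24 its level divided by that of C24 was at most 0.000676. At this ratio the highest value of Tcf21 would give 0.228 RPKM in another cell, and the highest of each of the other 8 genes, outside the shallow cells, would give less.

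The third question was which of the genes were detected together. For each gene the cells were split into those with and without it, and the shares of cells with every other gene were compared. Of the 72 ordered pairs, 9 had a share at least 20 percentage points higher in the cells with the splitting gene (12.5%, against 4.80% over all genes at 1 RPKM in at least 10 cells), and 1 was at least 20 points lower (1.39%, against 2.93%). The 9 higher ordered pairs come from 5 of the 36 pairs of genes, 4 of which passed in both orders. The genes behind the 4.80% were not matched to the 9 genes in the number of cells detected. Tbx3, Prrx1 and Hand2 were more often found together, in all 6 orders of the 3 genes. Wt1 and Tcf21 were not.

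The share of all genes past 20 points differed between the splits. It was 8.02% higher and 1.24% lower for Tcf21, and 3.98% higher and 2.01% lower for Isl1, where none of the other 8 genes passed in either direction. For Tbx2 it was 5.46% higher and 5.4% lower, again with none of the 8. For Nkx3-2 it was 3.29% higher, with none, and 8.83% lower, with Hand2. On the lower side it was 1.3% for Tbx3, 1.95% for Prrx1, 1.63% for Hand2, 1.98% for Osr1 and 2% for Wt1, with none of the 8 in each.

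Wt1 and Tcf21 were both detected in 39 cells. Tcf21 was found in 39 of 54 cells with Wt1 (72.2%, 58.4% to 83.5%) and in 20 of 27 cells without it (74.1%, 53.7% to 88.9%). The difference of -1.85 percentage points has an interval of -22.1 to 21.4, combined from the exact bounds of both shares. Within collagen cells the difference was 7.32 points, and counting any value above 0 as detected it was 23.3 points.

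Hand2 was detected in 25 of 32 cells with Tbx3 (78.1%) and in 24 of 49 cells without it (48.98%), a difference of 29.1 points (5.84 to 48.4). Prrx1 was detected in 16 of 32 cells with Tbx3 (50%) and in 12 of 49 without it (24.5%), a difference of 25.5 points (2.38 to 46.8). Over all genes, 4.01% were at least 20 points more frequent in cells with Tbx3. Hand2 was found in 21 of 28 cells with Prrx1 (75%) and in 28 of 53 without it (52.8%), a difference of 22.2 points (-2.06 to 42.3), where 2.36% of all genes passed that mark. For the splits by Hand2 it was 3.87%.

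All 3 genes were present in 14 cells, 2 of them in 20, 1 in 27 and none in 20. Cells with Tbx3 or Hand2 were also deeper: the median was an estimated 4158470 reads in cells with Tbx3, against 3289680 in cells without it, and 3923460 reads in cells with Hand2, against 3115280 in cells without it. The part of depth in these pairs was not tested. Within collagen cells the difference was 21.5 points for Hand2 by Tbx3, 13.9 points for Prrx1 by Tbx3 and 17.8 points for Hand2 by Prrx1, so 2 of these 3 were under 20 points there. Other settings also took these differences under 20 points: Hand2 by Tbx3 was at 13.7 points with any value above 0 as detected, and Prrx1 by Tbx3 at 18.8 with transcripts of a gene summed and 16.2 in cells numbered 1 to 48. Hand2 by Prrx1 was at 15.5 points with summed transcripts, 12.2 at 5 RPKM, 13.6 at 10 RPKM, 19.9 without the shallow cells and 10.7 in cells numbered 1 to 48.

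Osr1 was mostly found in cells with Wt1. Wt1 was detected in 15 of 17 cells with Osr1 (88.2%) and in 39 of 64 without it (60.9%), a difference of 27.3 points (-0.124 to 43.9), where 8.1% of all genes were at least 20 points higher. Split by Wt1, 15 of 54 cells with Wt1 (27.8%) and 2 of 27 without it (7.41%) held Osr1, and 4.08% of all genes passed 20 points. The 2 Osr1 cells without Wt1 include C69, the cell with most Osr1. At detection thresholds of 5 and 10 RPKM the difference in Wt1 was -0.514 and -3.67 points, and with any value above 0 as detected it was -2.35 points. It was 3.81 points in cells numbered 49 to 96.

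Nkx3-2 went the other way with Hand2. Hand2 was detected in 6 of 15 cells with Nkx3-2 (40%) and in 43 of 66 without it (65.2%), a difference of -25.2 points (-51.4 to 5.34), where 8.83% of all genes were at least 20 points lower. Without the 4 shallow cells, 2 of which held Nkx3-2, the difference was -19.5 points, and at 10 RPKM it was 8.87 points. Tbx2 had no partner among the 9 genes at 20 points in either direction when it split the cells.

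**Figure D3:**
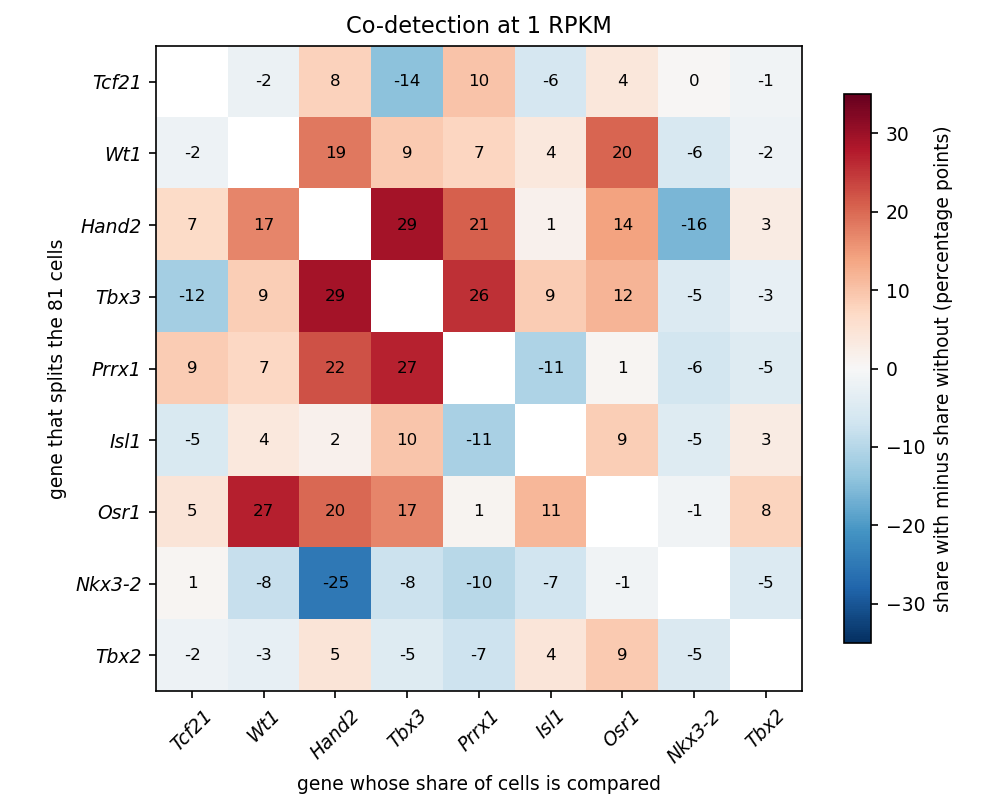
Share of cells at 1 RPKM of the gene in the column, in cells with the gene in the row minus cells without it, in percentage points (81 cells). The block of high values joins Hand2, Tbx3 and Prrx1, and the lowest value is Hand2 in the row of Nkx3-2 at -25.2 points.

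Correlations of log2(RPKM + 1) over the 81 cells were weak. The 36 pairs had a median Pearson r of 0.02 and a range of -0.25 to 0.28. The 3 pairs at 0.2 or more were Tbx3 with Prrx1 (0.28), Tbx3 with Hand2 (0.24) and Prrx1 with Hand2 (0.21), and the lowest was Tcf21 with Tbx3. Between the 9 genes and all 8939 genes at 1 RPKM in at least 10 cells, the central 95% of r lay between -0.21 and 0.23. All values of a cell share its library and depth.

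The genes most like each of the 9 outside the list had r between 0.37 and 0.50, in sparse values. They were Plxdc2, Rnf24 and Iffo2 for Wt1, Ier2, G2e3 and Zfp451 for Tcf21, Dnajc28, Kif7 and 5730494N06Rik for Nkx3-2, Csnk2a1, Phf21a and Mettl6 for Tbx3, and Plekho2, Mynn and AA465934 for Tbx2. For Isl1 they included Cinp and Lrpap1, for Prrx1 they were Rpl10, Snora70 and Pigf, for Hand2 Btg1, Rian and Flrt2, and for Osr1 they included Plxnb1 and Tmem161a. The highest was Plxnb1 with Osr1 (0.50), detected together in 7 cells. Of the 27 genes so chosen 5 were among the 3 most alike by Spearman rho, 16 without the shallow cells and 7 in collagen cells, so most of these names changed with the measure or the cells used.

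Other transcription factors of mesenchyme were taken as a list of 34 symbols, of which 33 are in the table. The 4 detected in most cells were Nr2f2 in 80 of 81 cells (mean 134.6 ± 74.5 RPKM), Nkx2-3, a gut and spleen factor, in 38, Barx1, a factor of stomach and spleen mesenchyme, in 36, and Tlx1, which the mouse spleen needs to form, in 34 (41.98%, 31.1% to 53.5%). The other genes of the list were detected in at most 18 cells. Foxf1a, Foxf2 and Gata4, also known from visceral mesenchyme, were among the 11 that did not reach 1 RPKM in any cell. With the 9 list genes detected in at least 10 cells, 4 of 81 comparisons (4.94%) were at least 20 points higher and 3 (3.70%) at least 20 points lower in cells with one of the 9 genes described here, against 4.80% and 2.93% over all genes.

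One of these, Isl1 with Tlx1, was singled out after the values were seen. Nkx2-3 in cells with Nkx3-2 had a like difference in share (-33.0 points) and is given below. Isl1 and Tlx1 were rarely detected in the same cell. Tlx1 was detected in 5 of 26 cells with Isl1 (19.2%, 6.55% to 39.4%) and in 29 of 55 cells without it (52.7%, 38.8% to 66.3%), a difference of -33.5 points (-52.1 to -9.03), where 2.01% of all genes were at least 20 points lower. Of the 8938 genes compared, 3, Tlx1 among them, had a difference as low as this, and the Pearson r of -0.37 was the lowest of all.

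In the 5 cells with both, at least 1 of the genes was low. C75 held Isl1 at 2.68 and Tlx1 at 161.1 RPKM, C29 held 3.92 and 45.6 RPKM, C43 held 1.89 and 3.504 RPKM, C42 held 12.2 and 2.62 RPKM, and C88 held 14.1 and 1.72 RPKM. At 5 RPKM 0 of 17 Isl1 cells held Tlx1, against 28 of 64 cells without Isl1. The limit used for a count of 0, 3 cells of 17, is 17.6%, and the upper Clopper-Pearson bound is 19.5%. At 10 RPKM the counts were 0 of 16 (18.8% by the same limit, with an upper Clopper-Pearson bound of 20.6%) and 23 of 65.

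The difference was also seen within collagen cells. Within collagen cells Tlx1 was found in 3 of 17 cells with Isl1 (17.6%) and in 26 of 45 without it (57.8%), a difference of -40.1 points. It was -31.3 points in cells numbered 1 to 48 and -34.8 points in cells numbered 49 to 96. With any value above 0 as detected it was -17.3 points. The median depth was an estimated 3934185 reads in cells with Isl1, against 3447440 in cells without it, and the part of depth in the difference was not tested.

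**Figure D4:**
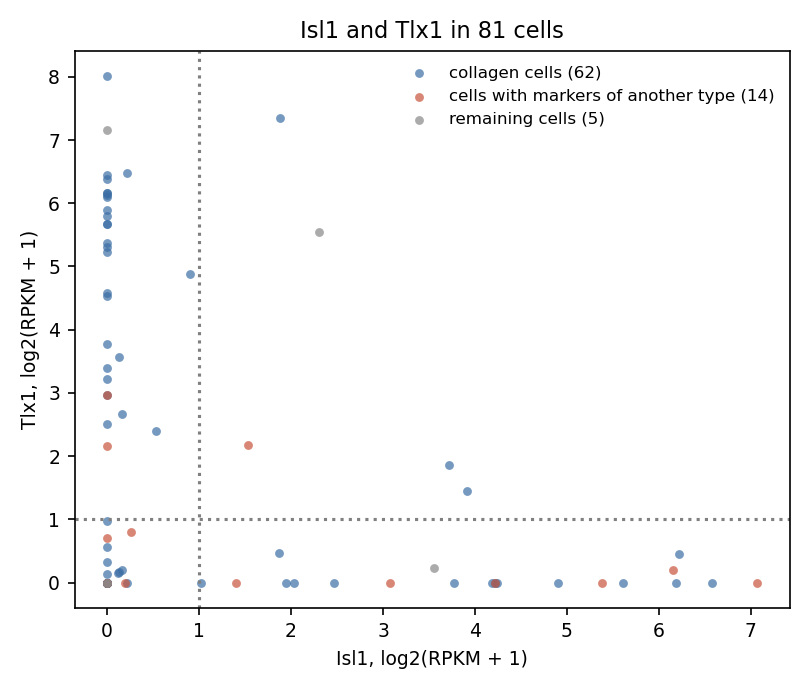
Isl1 (horizontal axis) against Tlx1 (vertical axis), both as log2(RPKM + 1), in 81 cells, with dotted lines at 1 RPKM. Most cells lie along one axis or the other, and the upper right field holds 5 cells.

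Barx1 and Nkx2-3 were set beside the same genes. Barx1 was detected in 19 of 32 cells with Tbx3 (59.4%) and in 17 of 49 without it (34.7%), a difference of 24.7 points. Nkx2-3 was detected in 3 of 15 cells with Nkx3-2 (20%) and in 35 of 66 without it (53.0%). The difference was -33.0 points (-53.0 to -2.21), where 8.83% of all genes were at least 20 points lower. The shallow cells C3 and C61 are among the 15. Tlx1 was found in 9 of 15 cells with Nkx3-2 (60%) and in 25 of 66 without it (37.9%). The difference was 22.1 points (-8.40 to 48.5), where 3.29% of all genes were at least 20 points higher. Also past 20 points were Twist2 in cells with Hand2 (24.4 points, 5.27 to 40.1) and Gata6 in cells with Osr1 (24.4 points, 0.887 to 51.5). Nkx2-3 in cells with Tbx2 was at -22.2 points (-45.9 to 9.90).

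Signals and receptors of the mesenchyme formed a list of 25 genes, and 13 were detected in at least 10 cells. The growth factor gene Igf2 was detected in 78 cells, the PDGF receptor gene Pdgfrb in 74, the Wnt ligand gene Wnt5a in 58 and the growth factor gene Igf1 in 57. Over 117 comparisons with the 9 genes, 7 (5.98%) were at least 20 points higher and 2 (1.71%) at least 20 points lower, against 4.80% and 2.93% over all genes. Of the 7, 4 concerned Wnt5a, which was picked out after the values were seen. It was detected in 28 of 32 cells with Tbx3 (87.5%) and in 30 of 49 without it (61.2%), in 39 of 49 cells with Hand2 (79.6%) and in 19 of 32 without it (59.4%), in 24 of 28 cells with Prrx1 (85.7%) and in 34 of 53 without it (64.2%), and in 13 of 14 cells with Tbx2 (92.9%) and in 45 of 67 without it (67.2%). The interval of the difference was 4.91 to 43.7 points for Tbx3 and -1.71 to 41.5 for Hand2. It was -0.781 to 39.2 for Prrx1 and -3.20 to 40.1 for Tbx2. For splits by Tbx2, 5.46% of all genes were at least 20 points higher.

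Hgf, the hepatocyte growth factor gene, was found in 15 of 54 cells with Wt1 (27.8%) and in 1 of 27 without it (3.70%). Aldh1a2, a gene of retinoic acid synthesis, was found in 6 of 54 cells with Wt1 (11.1%) and in 4 of 27 without it (14.8%), a difference of -3.70 points (-23.8 to 11.97). Fgf10, a mesenchymal growth factor gene that the pancreatic epithelium needs, was detected in 12 of 81 cells. These included 11 of 62 collagen cells and 0 of 14 other marked cells. A count of 0 in 14 cells does not show that such cells lack Fgf10, and a difference between the classes was not tested.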

How the data were processed

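Per the labels' protocols, cDNA of each cell was made with the SMARTer kit, and libraries with Nextera XT. CASAVA 1.8.2 and the build mm9 are named in the submitters' processing notes. How reads were aligned and counted is not stated in the labels. The authors deposited RPKM values, 1 per transcript and cell, already scaled to transcript length and library depth. The table does not name this unit. It was read from the values, because values times transcript length (GENCODE M21) fall on steps of 1 read. Between 2 and 6 reads, a median of 71.5% of values per cell lay within 0.15 of a whole number, with 66.8% as the lowest share. The worth of 1 read was itself estimated from steps in low values, so this share is no separate check of the unit. Isoforms share reads, so 1 transcript row stood for a gene. Means were taken on log2(RPKM + 1). The 81 cells are 1 sample, so no p-value was computed.

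All 9 genes were described. For each, the 3 genes of highest Pearson r among those at 1 RPKM in at least 10 cells were named, except 2 that are not reported here, and of 2 fixed lists the 4 genes detected in most cells. Further genes of these lists, the single cells and the pairs given in full were picked after their values were seen. Members and lists were chosen with earlier results of these data known. The formulas for class differences and for co-detection were also run, apart from the main calculation, on simulated cells with known differences. The simulated co-detection had no differences in depth and no rarely detected genes, so it does not cover these. No doublet caller was run on 81 cells. Python 3.11.15, numpy 2.4.6, pandas 2.3.3 and scipy 1.17.1 were used. Alternatives covered the detection threshold, summed transcript rows, the 4 shallow cells, the marker level, the pseudocount, the filter of 3 cells above 0, collagen cells alone and the cell numbers.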

Additional observations from a re-analysis of the deposited data

How the results depend on the processing

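No paired analysis was possible because the labels give 1 group. The median of 4 of the 9 genes per cell became 2 at a detection threshold of 10 RPKM and lay between 3 and 5 in the other 7 settings. The difference of -1.85 points in Tcf21 between cells with and without Wt1 became 23.3 points with any value above 0 as detected, and lay between -10.3 and 7.32 points elsewhere. The count of 2 genes at least 1 log2 unit higher in collagen cells became 4 with pseudocount 0.1. It was 3 with summed transcript rows, where Prrx1 was added, and 2 in the other 6 settings. Without the 2 endocrine-marker cells, a setting chosen after seeing the data, those 2 were Tcf21 and Hand2. For Wt1 in cells with Osr1 the sign turned above 0, at 5 and at 10 RPKM (-2.35, -0.514 and -3.67 points). For Hand2 it turned at 10 RPKM, in cells with Osr1 (-8.69 points) and in cells with Nkx3-2 (8.87 points). Tlx1 in cells with Isl1 kept its sign in all 8 settings. Its interval passed 0 with any value above 0 as detected (-38.8 to 5.93). It also did so in cells numbered 1 to 48 (-56.8 to 2.80) and 49 to 96 (-59.8 to 5.43). The 9 ordered pairs at 20 points ranged from 3 (10 RPKM) to 13 (cells numbered 49 to 96). Settings by collagen cells and by cell numbers were added after seeing the data for the pairs other than Wt1 with Tcf21, as was the pair of Isl1 and Tlx1. The cause of these changes was not tested. Depth limits the 4 shallow cells most.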
